A study of Mus musculus with 12 samples.

Results

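Mesothelin, the uroplakins Upk1b and Upk3b, the simple epithelial keratins Krt7, Krt8, Krt18 and Krt19, and the genes Lrrn4, Wt1 and Bnc1 were followed in cultured mouse aortic smooth muscle cells. These 10 genes were chosen by the FPKM of Msln, which had a higher level in calcification medium than in control medium, and the others are known with it as markers of mesothelium or simple epithelium. Of the 10, 9 were found by symbol among the 25745 genes of the deposited table, and Krt8 was not analysed here. The choice rests on the calcification and control libraries, so values from those groups are given as a description with no test.

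The cells were wild-type (WT) primary vascular smooth muscle cells, grown out of thoracic aorta explants of C57BL/6J mice aged 5 to 6 weeks, stripped of adventitia and endothelium and used at passages 5 to 8. In 4 groups of 3 libraries each, cells carried an αKlotho lentivirus in calcification medium (Klotho), carried an empty lentivirus in calcification medium (vector), were kept in calcification medium (calcification), or were kept in basal medium (control). Whether the calcification and control cells received a virus is not said by the labels. Calcification medium contained 3.0 mM sodium phosphate and was applied for 7 days. All groups thus share the explant culture and passage range. The labels do not say whether replicates came from separate mice or cultures. The replicate spread behind each p-value therefore need not be a spread between animals. Values are FPKM, fragments scaled by gene length and by library size, and depth lay between 16652000 and 20008000 fragments per library. Kl, the gene for αKlotho, was listed at 0 in 11 of 12 libraries and held 1 fragment in Klotho replicate 3, so the group is called by its label only. Reads of a virus that carries another form of the αKlotho sequence need not be counted under Kl. The smooth muscle markers Acta2 (127.6 to 1081 FPKM) and Myh11 (1.32 to 40.8 FPKM) were present in every library, and both were lowest in replicate 1 of each group. Of other smooth muscle markers, Tagln lay between 1.11 and 9.87 FPKM and Cnn1 between 2.26 and 60.3 FPKM.

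As background, mesothelium is the single cell layer that lines the pleura, pericardium and peritoneum. It is of mesodermal origin, yet it carries an epithelial cytoskeleton of simple keratins, in which a type II keratin (Krt7 or Krt8) pairs with a type I keratin (Krt18 or Krt19). Mesothelin is a lipid-anchored glycoprotein on its surface that binds the mucin Muc16. Uroplakins were first described as the membrane plaque proteins of the bladder lining, and Upk1b and Upk3b are also transcribed in mesothelium. Wt1 is a zinc finger transcription factor of mesothelium and epicardium.

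Msln was abundant in every library that had received phosphate. Its level was 41.3, 90.2 and 29.7 FPKM in Klotho replicates 1 to 3, 47.5, 105.2 and 35.2 FPKM in vector replicates, 36.4, 106.3 and 30.4 FPKM in calcification replicates, and 3.87, 10.7 and 1.26 FPKM in control replicates. The lowest phosphate library therefore stood above the highest control library, and replicate 2 was the highest library of each group. Group means were 53.7 ± 32.1 FPKM in Klotho, 62.6 ± 37.3 in vector, 57.7 ± 42.2 in calcification and 5.28 ± 4.88 in control (SD, n = 3 each). In order of level the groups ran vector, calcification, Klotho and control, and the first 3 overlapped throughout. In the phosphate libraries Msln stood between the 93.1 and 98.1 percentiles of all genes in the table, and in control between the 60.1 and 85.0 percentiles. The smallest value, in control replicate 3, still rested on 66 fragments. The table, which names no genome build, places Msln on the minus strand of chromosome 17 from 25967587 to 25973352.

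Upk1b, a tetraspanin that partners other uroplakins in the urothelial plaque, had the same arrangement. The table places it on the minus strand of chromosome 16 from 38593546 to 38620690. Its level was 27.7, 71.6 and 34.5 FPKM in Klotho, 34.6, 64.0 and 34.9 FPKM in vector, 26.2, 66.1 and 30.6 FPKM in calcification, and 7.41, 16.1 and 13.1 FPKM in control, each in the order of replicates 1 to 3. Again no control library reached a phosphate library, and replicate 2 was highest in all 4 groups. Means were 44.6 ± 23.6 FPKM in Klotho, 44.5 ± 16.9 in vector, 41.0 ± 21.9 in calcification and 12.2 ± 4.42 in control (SD, n = 3 each). The order of groups was Klotho, vector, calcification and control, and the first 3 did not differ beyond their spread.

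Upk3b, a single-pass membrane uroplakin on the plus strand of chromosome 5 (136067350 to 136075341), did not share it. It stood at 3.81, 7.12 and 1.92 FPKM in Klotho, 3.14, 5.35 and 1.82 FPKM in vector, 3.23, 6.14 and 1.57 FPKM in calcification, and 3.91, 7.93 and 2.84 FPKM in control. All 4 groups overlapped, with means of 4.28 ± 2.63, 3.44 ± 1.78, 3.65 ± 2.32 and 4.89 ± 2.68 FPKM in that order (SD, n = 3 each), and control had the highest mean. The plot of Msln, Upk1b and Upk3b by library shows the gap between phosphate and control libraries for the first 2 genes and its absence for Upk3b.

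**Figure D1:**
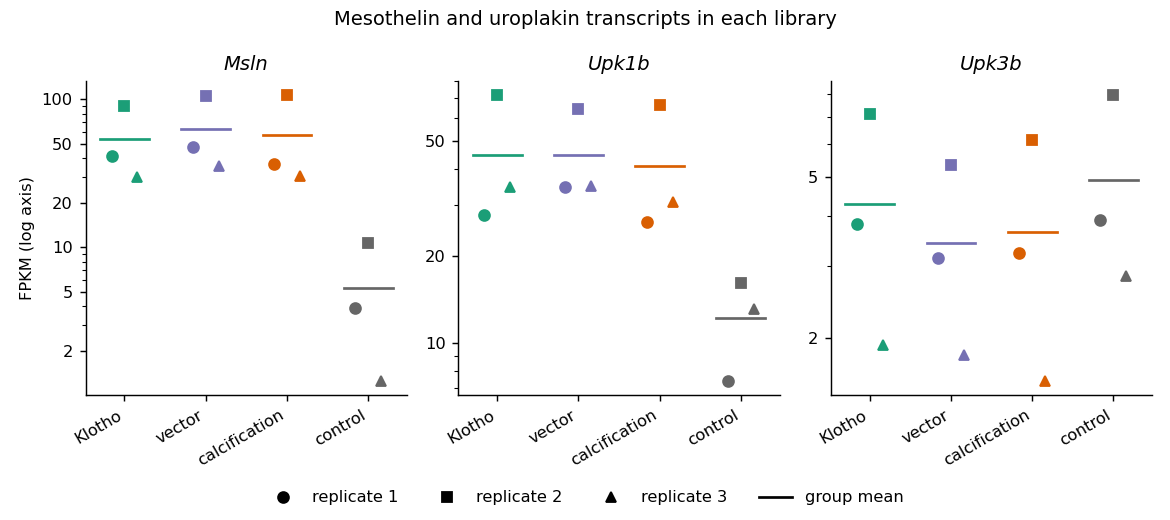
FPKM of Msln, Upk1b and Upk3b on a log axis, 1 symbol per library with its shape giving the replicate number, and a bar at each group mean. All 9 phosphate libraries lie above all 3 control libraries for Msln and Upk1b, while the groups overlap for Upk3b, and replicate 2 is highest in every group for all 3 genes.

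Among the keratins, Krt7, a type II simple keratin, was low, and its phosphate and control libraries were apart. It stood at 0.443, 1.01 and 1.33 FPKM in Klotho, 1.11, 1.20 and 1.34 FPKM in vector, 0.656, 1.59 and 1.28 FPKM in calcification, and 0.0581, 0.319 and 0.248 FPKM in control. The 9 phosphate libraries held 55 to 188 fragments each and the control libraries 7 to 39, so the lowest phosphate library was above the highest control. The FPKM of Krt7 is scaled by an exon length of 7049 bases, against 1855 for Krt19. Over the 12 libraries Krt7 held 1329 fragments and Krt19 638, so its place under the filter depends on that length. Krt7 overlaps Gm671 on the other strand. No strand setting is given in the sources used here, but Gm671 was listed at 0 in 10 of 12 libraries and reached 0.193 FPKM at most.

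Its possible type I partners had another arrangement. Krt19, a type I keratin without a tail domain, stood at 1.25, 1.76 and 1.78 FPKM in Klotho, 2.39, 1.55 and 1.41 FPKM in vector, 1.67, 1.98 and 1.40 FPKM in calcification, and 1.73, 0.716 and 1.73 FPKM in control, and all groups overlapped. Krt18, the usual partner of Krt8, was near the limit of detection. It held 0 to 17 fragments per library and was listed at 0 in 4 of 12 libraries, and its highest level was 0.711 FPKM, in calcification replicate 2. Summed over a group, Krt18 had 11 fragments in Klotho, 23 in vector, 26 in calcification and 6 in control. Because 3 fragments equal 0.104 to 0.125 FPKM for this gene, counting error alone spans much of that range.

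Lrrn4, a leucine-rich repeat membrane protein known as a mesothelial marker in mouse, was detected at trace level in each phosphate library and listed at 0 in all 3 control libraries. It stood at 0.107, 0.411 and 0.0135 FPKM in Klotho, 0.0619, 0.0618 and 0.0305 FPKM in vector, and 0.297, 0.129 and 0.0310 FPKM in calcification. These values came from 36 fragments in Klotho, 10 in vector and 31 in calcification, with no more than 28 in any library. In control a count of 0 allows up to 3 fragments per library, which equal 0.0466 to 0.0472 FPKM, counting error being the only error in that limit. The lowest phosphate libraries lie under it.

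Bnc1, basonuclin, a zinc finger protein of basal epithelium, germ cells and mesothelium, followed the replicate number rather than the medium. It stood at 2.30, 0.512 and 0.320 FPKM in Klotho, 0.749, 0.258 and 0.194 FPKM in vector, 1.87, 0.128 and 0.283 FPKM in calcification, and 1.71, 0.358 and 0.448 FPKM in control. Replicate 1 was the highest library of each group, which holds for 6.67% of the 10758 genes tested. Wt1 gave 9 fragments in the 12 libraries together, was listed at 0 in 8 of them and never exceeded 0.0366 FPKM.

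**Figure D2:**
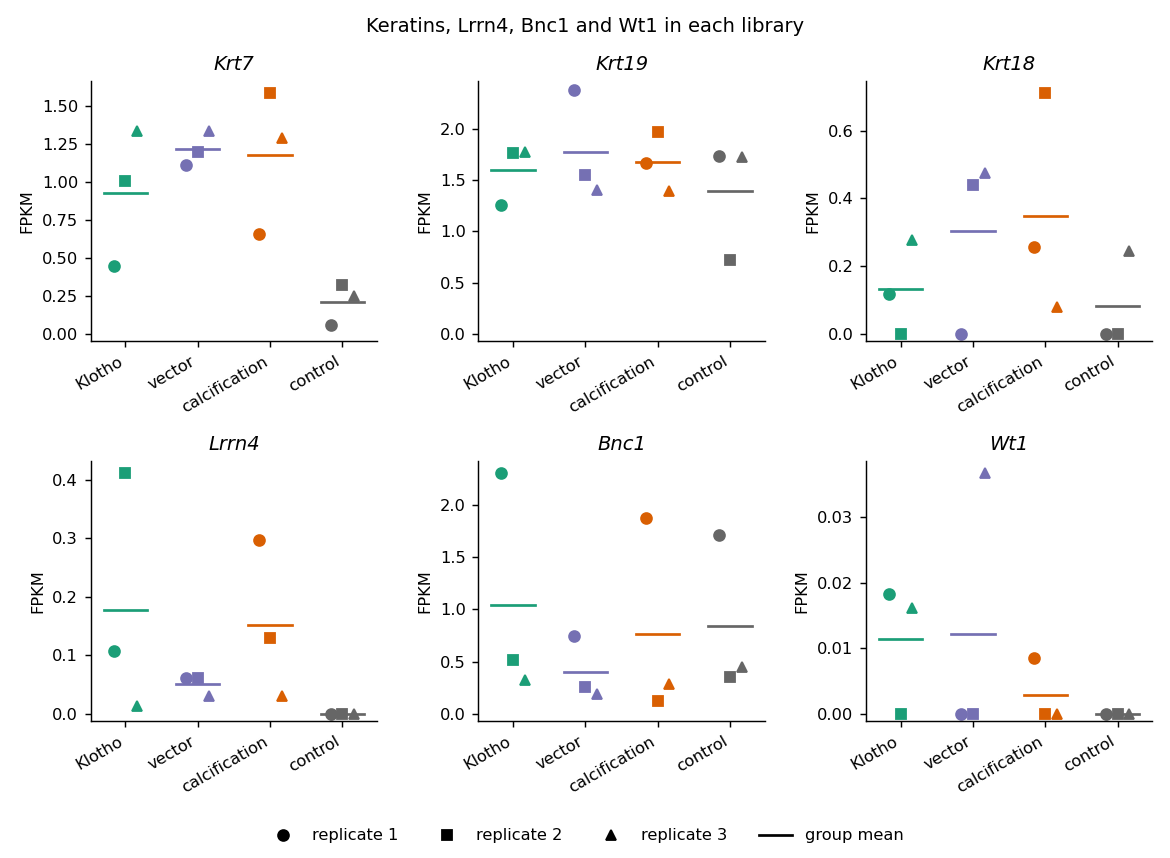
FPKM of Krt7, Krt19, Krt18, Lrrn4, Bnc1 and Wt1 on linear axes that differ between panels, 1 symbol per library and a bar at the group mean. Krt7 is higher in all phosphate libraries than in control, Lrrn4 is listed at 0 in control and reaches 0.411 FPKM in Klotho replicate 2, Bnc1 is highest in replicate 1 of each group, and Wt1 does not exceed 0.0366 FPKM.

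Promoter windows from RefSeq (build GRCm38.p6, 250 bases before to 50 after the start) were matched by symbol for 6 of the 10 genes. Those of Krt7 and Lrrn4 are shown because Krt7 was higher with phosphate and Lrrn4 was detected in phosphate libraries alone, and that of Upk3b because it is the uroplakin that was not. Capitals mark CATTCC, the core of the element bound by TEAD factors, or CACCTG, the E-box form that Snail factors bind, on either strand, written 5′ to 3′ along the gene.
Krt7 promoter (chr15:101412153-101412452, plus strand): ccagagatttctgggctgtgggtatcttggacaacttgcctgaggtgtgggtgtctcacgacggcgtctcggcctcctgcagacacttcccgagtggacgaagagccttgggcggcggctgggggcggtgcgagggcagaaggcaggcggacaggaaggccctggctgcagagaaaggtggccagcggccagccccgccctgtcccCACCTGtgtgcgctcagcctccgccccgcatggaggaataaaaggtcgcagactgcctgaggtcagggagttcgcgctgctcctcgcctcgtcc
Lrrn4 promoter (chr2:132880813-132881112, minus strand): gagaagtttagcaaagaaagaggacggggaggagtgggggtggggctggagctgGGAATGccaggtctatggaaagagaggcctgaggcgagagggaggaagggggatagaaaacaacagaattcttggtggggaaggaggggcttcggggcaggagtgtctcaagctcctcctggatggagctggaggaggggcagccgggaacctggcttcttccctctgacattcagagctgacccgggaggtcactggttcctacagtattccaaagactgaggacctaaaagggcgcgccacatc
Upk3b promoter (chr5:136038246-136038545, plus strand): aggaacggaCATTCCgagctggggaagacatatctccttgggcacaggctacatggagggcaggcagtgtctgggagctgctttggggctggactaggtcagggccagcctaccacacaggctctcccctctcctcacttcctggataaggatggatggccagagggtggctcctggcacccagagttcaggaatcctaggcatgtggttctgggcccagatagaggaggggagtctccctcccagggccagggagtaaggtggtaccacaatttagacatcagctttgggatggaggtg
CACCTG occurred once in the Krt7 window, at base 207 from its 5′ end. CATTCC occurred once in the Lrrn4 window, at base 55 as its reverse complement, and once in the Upk3b window, at base 10. Of 32851 promoter windows, 14.7% hold CATTCC and 20.2% hold CACCTG. The GC box GGGCGG, held by 35.7% of all windows, matched at 4 places in the Krt7 window and at none in the other two. The TATA box TATAAA (13.6% of all windows) gave no match in these 3 windows, nor did the bHLH core ACGTG (19.6%). Both strands were searched for each motif, and none of the matches in capitals shared a base with another motif. In the windows not shown, CACCTG occurred once in Krt8 (base 140) and once in Krt18 (base 37). TATAAA matched at 2 places in Krt8, and GGGCGG at 6 places in Bnc1. Msln, Upk1b, Krt19 and Wt1 had no entry.

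Calcification medium was compared with control to describe the difference by which the genes were chosen. Fold changes are from limma on log2(FPKM + 1), fitted over all 12 libraries. Msln differed by 3.31 ± 0.65 on the log2 scale, Upk1b by 1.61 ± 0.42, Krt19 by 0.19 ± 0.20 and Upk3b by -0.37 ± 0.47 (SE, n = 3 per group). Only these 4 members had the mean of at least 1 FPKM that the fit required, and the other 5 measured members are given by their levels alone. Of the 4, 2 were higher in calcification with no overlap, where 9.19% of all tested genes were higher and 5.52% lower in that sense. None of the 9 measured members was lower with no overlap. Of the 5 under the filter, to which these shares do not apply, Krt7 was higher with no overlap, and Lrrn4 was above the 0 listed in control by 2 to 21 fragments per library, in part within the limit given above.

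The lentivirus groups give the same measure in libraries that played no part in the choice, although the control libraries are shared, so these values stand side by side with no test. Vector differed from control by 3.50 ± 0.65 for Msln, 1.78 ± 0.42 for Upk1b, 0.23 ± 0.20 for Krt19 and -0.39 ± 0.47 for Upk3b on the log2 scale. Klotho differed from control by 3.28 ± 0.65 for Msln, 1.73 ± 0.42 for Upk1b, 0.15 ± 0.20 for Krt19 and -0.19 ± 0.47 for Upk3b. Msln and Upk1b were again higher with no overlap, beside 22.4% of all tested genes higher and 19.1% lower in vector, and 11% higher and 8.83% lower in Klotho. All 9 phosphate libraries exceeded all 3 control libraries for 4.16% of tested genes, among them Msln and Upk1b, and lay below them for 2.78%. As ratios of mean FPKM to control, Msln stood at 10.2 in Klotho, 11.9 in vector and 10.9 in calcification. The ratios of Upk1b were 3.65, 3.64 and 3.36, and those of Krt7 4.45, 5.82 and 5.64, in the same order.

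**Figure D3:**
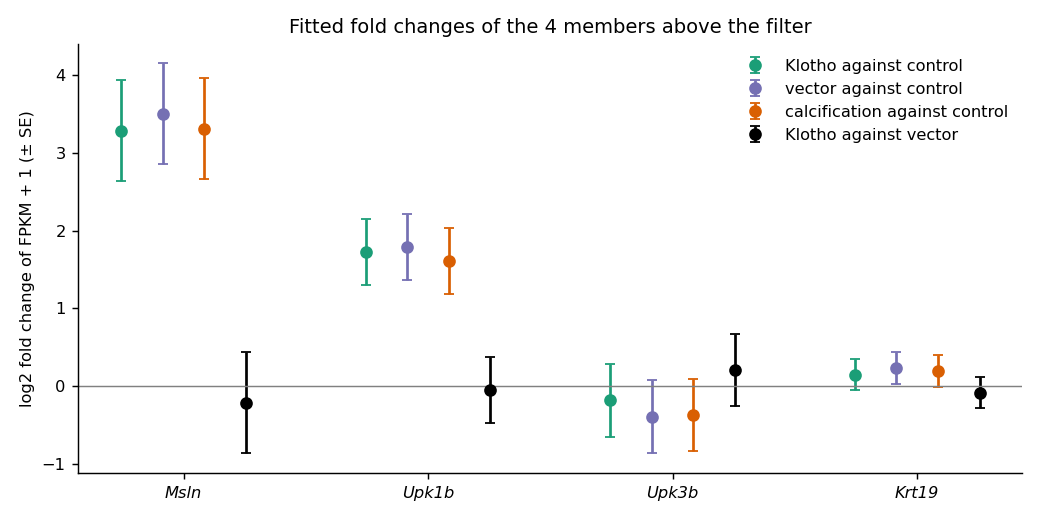
Fitted log2 fold changes of FPKM + 1 with SE (n = 3 per group) for the 4 members tested, in each phosphate group against control and in Klotho against vector. Msln lies between 3.28 and 3.50 and Upk1b between 1.61 and 1.78 against control, while every Klotho against vector value lies within 0.22 of 0.

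Libraries with the same replicate number deviated together from their group means in all 3 comparisons with control (correlations across genes of 0.199 to 0.571), so ratios of same-numbered libraries are given too. Calcification over control was 9.40, 9.94 and 24.2 for Msln in replicates 1 to 3, and 3.54, 4.11 and 2.34 for Upk1b. For Krt7 it was 11.3, 4.97 and 5.18. Over all 3 phosphate groups, 9 of 9 such ratios to control were above 1 for Msln (8.43 to 28.1), Upk1b (2.34 to 4.67) and Krt7 (3.15 to 19.1). The 9 ratios of a gene divide by only 3 control libraries, so they are not independent of each other. For Upk3b 9 of 9 were below 1 (0.552 to 0.975), so that matched by number its level was lower with phosphate in each case, by a factor smaller than the spread between replicates. Krt19 was above 1 in 5 of 9 and Bnc1 in 3 of 9.

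Klotho against vector was the comparison that could be tested, since it shares no library with the choice of genes. It asked whether the αKlotho virus altered these transcripts in phosphate. None of the 4 members tested was called by limma (adjusted p over all genes), and 0.0% of the 10758 genes were. Msln differed by -0.22 ± 0.65 (log2, SE; 95% interval -1.64 to 1.20; adjusted p = 0.907). Upk1b differed by -0.06 ± 0.42 (-0.98 to 0.87; adjusted p = 0.968), Upk3b by 0.21 ± 0.47 (-0.81 to 1.23; adjusted p = 0.868) and Krt19 by -0.09 ± 0.20 (-0.53 to 0.36; adjusted p = 0.872). No member's groups were free of overlap, where 11.3% of tested genes were higher and 10.4% lower with no overlap. These intervals leave room for changes of more than 1 on the log2 scale in Msln and Upk3b, so no difference was detectable rather than shown to be absent. They come from the fit without the replicate number as a block, and their width depends on that choice. With the block the SE was 0.166 for Msln and 0.116 for Upk3b, and 11 genes were called, no member among them. Without it, 1514 genes had an unadjusted p under 0.05, and limma-voom on fragment numbers recovered from FPKM also called 0.

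Within a group Msln, Upk1b and Upk3b also varied together, while other members did not all do so. Correlations of log2(FPKM + 1) over the 12 libraries, which share depth and culture, describe this and carry no test. Across all libraries Msln had a Pearson r of 0.92 with Upk1b, 0.79 with Krt7, 0.53 with Lrrn4, 0.21 with Upk3b and 0.21 with Krt19. After group means were removed, r with Msln was 0.94 for Upk3b, 0.73 for Upk1b, 0.38 for Lrrn4, 0.21 for Krt7 and -0.26 for Krt19. It was 0.05 for Krt18, -0.23 for Bnc1 and -0.47 for Wt1. Upk3b thus ran with Msln between replicates and not between media. Msln and Upk3b both ranked replicate 2 above 1 above 3 in all 4 groups, an order that 21 of 10758 tested genes (0.195%) kept throughout. That order was named after it was seen, and 618 genes (5.74%) kept some order of replicates in all 4 groups. Bnc1 and Krt7 ran opposite to each other inside groups (r = -0.96). Krt7 and Upk1b, like Acta2, were lowest in replicate 1 of each group, and the part of such differences between replicates in the values of Msln was not tested.

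**Figure D4:**
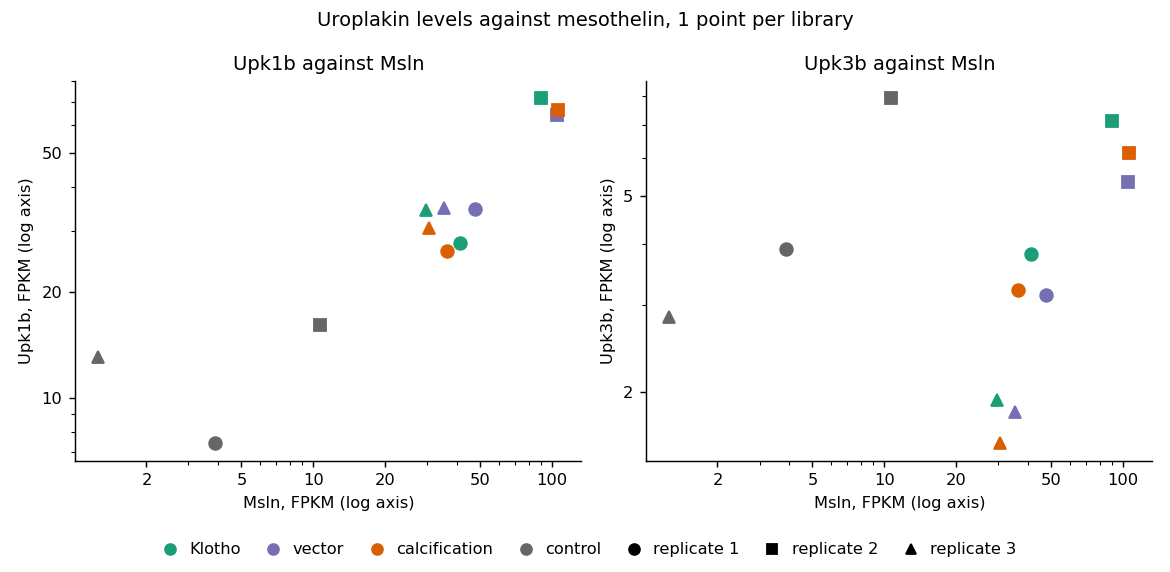
Upk1b (left) and Upk3b (right) against Msln, FPKM on log axes, 1 point per library, with colour for the group and shape for the replicate number. Upk1b is high where Msln is high across media and replicates, while Upk3b follows Msln by replicate inside each group and the control points lie to the left at equal or higher Upk3b.

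The genes most like Msln over the 12 libraries, by Pearson r of log2(FPKM + 1), were Cys1, Serpinb6c, Adamtsl5, Apcdd1, Nkain4 and Gm2115, with r between 0.931 and 0.966. Serpinb6c has near-identical family members, so its value is uncertain where reads are shared. Only 10 of the tested genes were more like Msln than Upk1b was. Nkain4, a membrane protein gene also listed as a mesothelial marker, averaged 72.5 ± 6.09 FPKM in Klotho, 85.0 ± 15.5 in vector, 67.4 ± 7.01 in calcification and 42.6 ± 12.1 in control (SD, n = 3 each). Apcdd1, an inhibitor of Wnt signalling, averaged 5.38 ± 1.32, 4.92 ± 1.58, 5.43 ± 1.30 and 1.76 ± 0.417 FPKM in the same order. None of these 6 was called in Klotho against vector (limma, adjusted p between 0.565 and 0.861). For Krt19, which varied little, the most like were Btrc, Zfp316, Yju2, Klhl25, Hspa12b and Endog (r between 0.823 and 0.894).

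Further mesothelial markers were counted from a list, to see what else of that cell type was present. Of 10, 4 had a mean of at least 1 FPKM. In calcification against control Nkain4 was higher and Aldh1a2, a retinoic acid synthesis enzyme, was lower with no overlap (1.31 ± 0.901 FPKM in calcification and 4.32 ± 1.69 in control, SD, n = 3 each), and the median log2 fold change was 0.14, beside 0.04 over all tested genes. Of all tested genes 9.19% were higher and 5.52% lower with no overlap. Pdpn, podoplanin, a mucin-type membrane protein of mesothelium that fibroblasts also express, was abundant in all groups, with 153 ± 66.7 FPKM in Klotho, 153 ± 45.8 in vector, 143 ± 55.0 in calcification and 134 ± 38.0 in control, and the groups overlapped. The groups overlapped for Slpi, a protease inhibitor, too. The markers Muc16 (at most 0.00569 FPKM), Calb2, calretinin (0 in 9 of 12 libraries, at most 0.231 FPKM) and Wt1 were at or near 0 in every group. The rest of the list was low but not all absent. Gpm6a (0.124 to 1.82 FPKM), Cldn15 (0.272 to 1.51 FPKM) and Podxl (0.199 to 1.05 FPKM) were listed above 0 in every library, and Rspo1 did not exceed 0.387 FPKM. Summed over the 10, levels ran from 189.8 to 308.4 FPKM in Klotho, 204.5 to 308.7 in vector, 172.7 to 272.0 in calcification and 153.2 to 226.8 in control, mostly from Pdpn and Nkain4. In bulk RNA a change in the number of cells of a type and a change in RNA per cell cannot be told apart.

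Epithelial genes outside the keratins were mostly low. Of 16 junction genes and epithelial regulators measured, 12 stayed below 0.5 FPKM in every library, among them Cdh1, E-cadherin (at most 0.138 FPKM), and Epcam (at most 0.149 FPKM). Only Cldn1, a tight junction claudin, and Esrp2, a splicing regulator of epithelia, passed the filter, and calcification overlapped control for both. Cldn1 averaged 12.8 ± 12.7 FPKM in Klotho, 8.20 ± 4.67 in vector, 13.8 ± 13.4 in calcification and 5.86 ± 4.21 in control, while Esrp2 averaged 1.51 ± 0.200, 1.59 ± 0.373, 1.82 ± 0.292 and 2.66 ± 0.527 FPKM in the same order (SD, n = 3 each). Every Klotho and vector library lay below every control library for Esrp2, and the groups overlapped for Cldn1. Of the desmosome and plakin genes 4 of 11 passed (Plec, Ppl, Jup and Pkp4), none without overlap in calcification against control, with a median of -0.13.

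**Figure D5:**
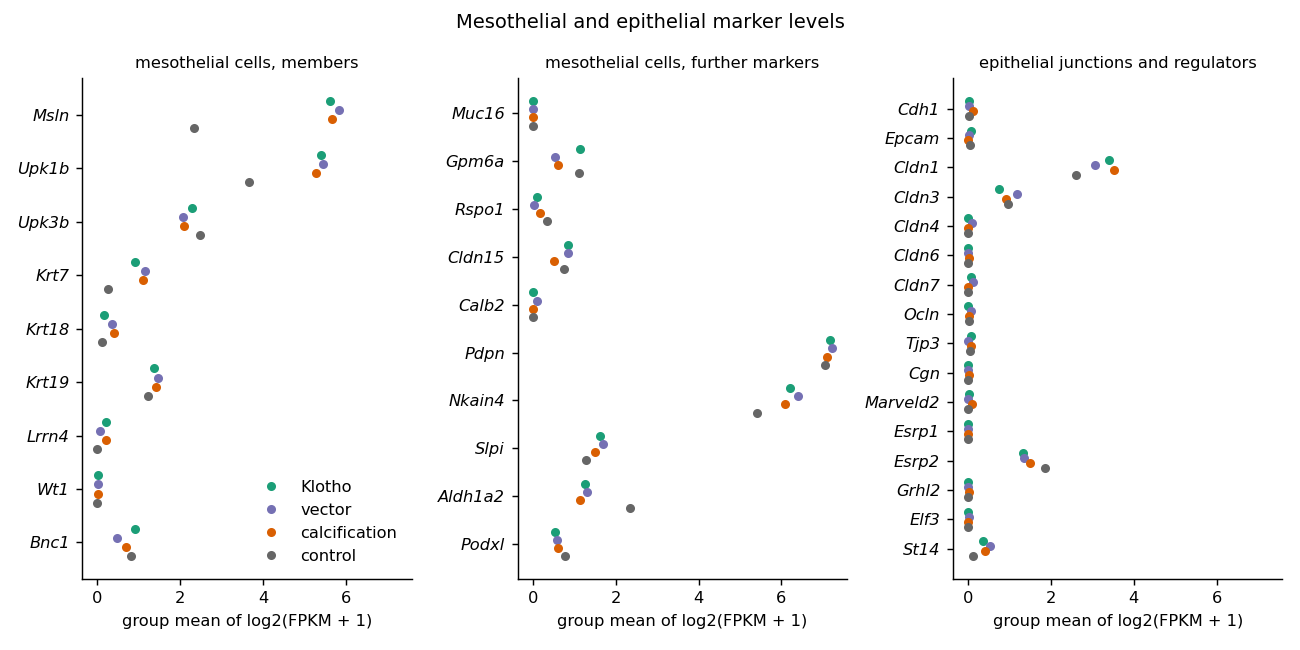
Group means of log2(FPKM + 1) over 3 libraries for the 9 members measured, 10 further mesothelial markers and 16 epithelial junction genes and regulators. Msln, Upk1b and Nkain4 are high and higher in the 3 phosphate groups than in control, Pdpn is high in all groups, and most of the epithelial genes lie at or near 0.

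Other keratins were rare as well. Of 11 measured, 8 stayed below 0.5 FPKM in every library, including Krt5 and Krt14 of basal epithelium, and Krt80 was the only one above the filter. It averaged 2.66 ± 0.555 FPKM in Klotho, 2.59 ± 1.01 in vector, 2.68 ± 0.816 in calcification and 1.28 ± 0.790 in control (SD, n = 3 each). Vector and calcification overlapped control, and every Klotho library lay above every control library. Vim, the mesenchymal intermediate filament vimentin, lay between 1126 and 1729 FPKM in all libraries, and all groups overlapped. Among 6 tested genes of other intermediate filaments, Des, the muscle filament desmin, was higher in calcification with no overlap (3.56 ± 2.18 FPKM in Klotho, 4.25 ± 2.28 in vector, 4.09 ± 1.999 in calcification and 1.17 ± 0.905 in control, SD, n = 3 each). Lmna, Lmnb1, Lmnb2 and Nes overlapped in calcification against control, and the list's median was 0.10. Of all tested genes 9.19% were higher with no overlap there. In Klotho against vector 2 of the 6 were lower with no overlap, as were 10.4% of all tested genes. They were Lmna (111.4 ± 30.1 FPKM in Klotho and 148.0 ± 6.86 in vector) and Lmnb2 (4.42 ± 0.742 in Klotho and 5.46 ± 0.551 in vector, SD, n = 3 each). Neither was called by limma (adjusted p = 0.394 and 0.474).

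Of the other uroplakins and urothelial genes only Psca, a lipid-anchored surface protein, passed the filter. It averaged 2.16 ± 0.494 FPKM in Klotho, 2.82 ± 1.19 in vector, 2.395 ± 1.04 in calcification and 0.856 ± 0.510 in control (SD, n = 3 each). Every phosphate library was above every control library, as for 4.16% of all tested genes. The margin was small, with 1.28 FPKM in the lowest calcification library and 1.21 FPKM in the highest control library. Upk2 was listed at 0 in 11 of 12 libraries and Upk1a did not exceed 0.528 FPKM. Of 6 relatives of mesothelin, Lrrn4 and basonuclin, none passed the filter, Bnc2 being the highest (at most 0.974 FPKM), and Mslnl, the gene next in sequence to Msln, did not exceed 0.140 FPKM.

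Regulators of mesenchymal state were present throughout. All 7 passed the filter, none was free of overlap in calcification against control, and the median was 0.06. Snai1, a Snail repressor of epithelial genes, lay between 25.1 and 39.3 FPKM in all libraries. Zeb1 averaged 11.04 ± 0.834 FPKM in Klotho, 6.30 ± 0.165 in vector, 9.65 ± 0.709 in calcification and 8.86 ± 2.36 in control. Zeb2 averaged 6.34 ± 0.545, 3.48 ± 0.104, 5.76 ± 0.460 and 6.66 ± 1.79 FPKM in the same order (SD, n = 3 each). Vector thus had the lowest mean of the 4 groups for both genes. Both were higher in Klotho than in vector with no overlap, 2 of the 7 genes, beside 11.3% of all tested genes. Neither was called by limma (log2 0.72 ± 0.16 and 0.71 ± 0.15, adjusted p = 0.199 for both). Of 3 epicardial transcription factors tested none was free of overlap with control in calcification (median 0.03), with Hand2 at 65.4 ± 12.6 FPKM in calcification and 44.6 ± 23.6 in control.

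Markers of the cells that the aortic wall can hold were read in the same way for calcification against control. Of all tested genes 9.19% were higher and 5.52% lower with no overlap in that comparison. Of 8 smooth muscle genes tested 1, Des, was higher with no overlap (median -0.06). Of 2 endothelial genes tested, Cdh5 and Emcn, none was (median -0.02), and Pecam1 stayed between 0.166 and 2.02 FPKM. Of 6 adventitial fibroblast genes 1, Col14a1, was lower with no overlap (median -0.52). The others overlapped: Ly6a, the most abundant, had a log2 fold change of 0.67, and Dcn, Cd34, Pdgfra and Dpt had values below 0. Of 4 macrophage genes 1, Csf1r, was higher with no overlap (log2 0.46, list median 0.16). Among those that overlapped, Cd68 stood at 0.57, Lyz2, the most abundant, at -0.38 and Cd14 at -0.13. Under the filter, the leukocyte gene Ptprc did not exceed 0.0631 FPKM, and Aif1 was listed at 0 in 9 of 12 libraries. Mrc1 (0.0272 to 2.505 FPKM) and Adgre1 (0.0617 to 1.69 FPKM) were listed above 0 in every library. No gene of any list was called in Klotho against vector by limma. Their part in the levels of Msln and Upk1b was not tested.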

How the data were processed

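RNA of 12 libraries was measured in 4 groups of 3, with groups taken from the sample titles. The authors' deposited values come in 1 table, which does not name its unit. The unit was read from the values themselves, which fit FPKM as made by the authors: multiplied by GENCODE M21 exon length, 97.8% to 98.4% of values under 100 fragments were whole within 0.05 in each library. The submitters' processing notes list CASAVA 1.8.2, DESeq2 3.12 and STAR 2.4 without saying what each did. The counting tool and the use of strand: not given in the sources used here. The notes name GRCm38 and GRCm39, and the table names neither, so its coordinates are printed as it gives them.

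Values were analysed as log2(FPKM + 1) with limma 3.58.1 (R 4.3.3), with a mean-variance trend, 1 coefficient per group over all 12 libraries, and Benjamini-Hochberg adjustment over the 10758 genes whose mean over libraries reached 1 FPKM. Genes with an adjusted p under 0.05 count as called. The log2(FPKM + 1) scale understates changes of low genes. Fragment numbers were recovered from FPKM, exon length and depth. "No overlap" means that every library of one group exceeds every library of the other. The members and 14 gene lists were chosen with earlier results of these data known. Named are the members, at most 6 tested genes per list by mean level, and the 6 genes most correlated with Msln and with Krt19. Other genes of the lists are named to give the range of low markers and were chosen after their values were seen. Alternatives covered the pseudocount, filter, scaling, limma-voom, replicate block, libraries used and leaving out each library.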

Additional observations from a re-analysis of the deposited data

How the results depend on the processing

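Every value of Msln, Upk1b, Upk3b and Krt19 against control moved by less than the spread between replicates under each of the 14 settings tried. Signs turned where the difference was small: without control replicate 2, Krt19 stood at -0.03 in calcification and -0.08 in Klotho against control and Upk3b at 0.16 in Klotho against control, and Upk3b stood at 0.18 there without Klotho replicate 3. Leaving out 1 library at a time, Msln in calcification against control ranged from 2.73 to 3.92 (log2), in vector against control from 2.92 to 4.11 and in Klotho against control from 2.70 to 3.89. For Klotho against vector the count of genes called was 0 in the fit reported and 0 with each library left out, 2 with no filter on low values (Gja6, 0.320 FPKM in Klotho and 0.0471 in vector, and U2, 0.299 FPKM in vector and listed at 0 in Klotho) and 11 with the replicate block. In these 2 groups the deviations of same-numbered libraries had correlations across genes of 0.294, 0.522 and 0.00556 in replicates 1 to 3. Replicates 1 and 2 thus deviated together in part, and replicate 3 did not. With the replicate block the SE was 0.166 for Msln and 0.116 for Upk3b, and the ratio of Klotho to the same-numbered vector library was below 1 in replicates 1 to 3 for Msln (0.869, 0.858 and 0.844) and above 1 for Upk3b (1.21, 1.33 and 1.06), but no member was called (adjusted p = 0.468 for Msln, 0.863 for Upk1b, 0.320 for Upk3b and 0.830 for Krt19).

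No member was called in Klotho against vector under any of the 14 settings, and signs of these small differences turned. With replicates 2 and 3 alone Upk1b stood at 0.072 and Krt19 at 0.16. With each library left out in turn Msln ranged from -0.66 to 0.23, Upk1b from -0.45 to 0.23, Upk3b from -0.16 to 0.57 and Krt19 from -0.18 to 0.063. The cause was not tested. TMM scaling in the limma-voom setting was computed from its published definition. Depth limits what can be said of Wt1, Krt18 and Lrrn4, which held at most 28 fragments in any library.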

Other observations

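Genes beside Msln and Upk1b on their chromosomes were read as well, by the positions in the table. In the 100 kb on either side of Msln lay all or part of 12 tested genes, with log2 fold changes of -0.37 (Fbxl16) to 0.60 (Chtf18) in calcification against control. Of the 12, 2 were higher with no overlap, beside 9.19% of all tested genes. Around Upk1b lay 2 tested genes, B4galt4 (0.52) and Arhgap31 (0.14), of which 1 was higher with no overlap. Krt80 was the only tested gene in that span around Krt7 (0.73). These genes were chosen by position after the values of the members were known.

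Krt20, a type I keratin of intestine and urothelium named after its values were seen, was listed above 0 in all 12 libraries, between 0.0303 and 1.31 FPKM, and lay under the filter.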
